A study of Arabidopsis thaliana with 9 samples.

Results

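Leaves of the Arabidopsis thaliana mutant ntrc-2cpab, which lacks NTRC and the 2-Cys peroxiredoxins A and B, were compared with wild type leaves across the nuclear genes. A locus entered the comparison when its mean abundance over the 3 wild type and 3 ntrc-2cpab samples was at least 1, where abundance is the deposited log2 value turned back to a linear scale with its offset of 1 removed. This left 16107 of the 33602 loci of the table, out of 33323 nuclear loci, of which 27671 were above 0 in at least 1 of the 6 samples. Just inside this limit, at a mean from 1 to 1.1, lay 284 loci, and 293 lay just outside, from 0.9 to 1.

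The plants, of the Col-0 accession, grew in short days to an age of 8 weeks. Their young rosette leaves were taken when the lamps (125 µE m-2 s-1) had been on for 2 h, and poly(A) RNA was sequenced. The 3 genotypes of the study were the wild type, 2cpab, which is mutant in the genes 2CPA and 2CPB, and ntrc-2cpab, which is mutant in NTRC as well. Each genotype had 3 biological replicates, each pooled from 3 plants. The labels name no independent lines and no complemented plants, so the mutations and any other difference between the stocks cannot be told apart. In whole leaves, fewer cells of a type and less RNA per cell cannot be told apart either.

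2-Cys peroxiredoxins are abundant chloroplast enzymes that reduce hydrogen peroxide with a reactive cysteine, which must then be reduced again. NTRC, a thioredoxin reductase fused to a thioredoxin domain, uses NADPH to do this, while f-type and m-type thioredoxins draw electrons from photosynthesis to switch on enzymes of carbon fixation in the light. Both systems are linked, because oxidised peroxiredoxins take electrons from the thioredoxins, and plants without NTRC are known for pale leaves and slow growth.

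The number of reads behind each value is unknown, since the values are scaled abundances rather than counts, and precision was judged from the spread between replicates. The spread on the log2 scale, as a root mean square SD over loci, was 0.22 among wild type samples, 0.18 for 2cpab and 0.20 for ntrc-2cpab. Wild type replicate 1 stood apart: on the axis of greatest variance (37.4% of the total) the wild type replicates lay at -35.8, -4.63 and -18.4, 2cpab between 1.52 and 7.52, and ntrc-2cpab between 9.29 and 20.6. The main groups of results below are therefore also given without that replicate. The tissue label was checked against markers: all 4 leaf mesophyll markers passed the limit on abundance, with RBCS1A between 10320 and 15967 in the 6 samples, while none of 5 floral markers and only SCR of 5 root markers passed the limit on abundance. Between 46.8 and 55.9% of the summed abundance of each sample came from loci of the plastid genome, which were left out of this comparison.

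The 3 mutated genes were low in the samples whose labels name them. In the order of replicates 1 to 3, which holds for all values below, 2CPA (AT3G11630) was at an abundance of 259, 325 and 310 in wild type leaves and of 3.43, 4.04 and 3.84 in ntrc-2cpab. 2CPB (AT5G06290) stood at 53, 63.4 and 59.4 in the wild type and at 9.24, 10.8 and 8.88 in ntrc-2cpab, and NTRC (AT2G41680) at 74.5, 80.2 and 76.1 against 15, 18.3 and 14.7. All 3 genes separated the genotypes without overlap, with 1.27% of the wild type mean left for 2CPA, 16.5% for 2CPB and 20.8% for NTRC. In the 2cpab samples NTRC stood at 60.9, 64.7 and 68.1. 2CPA and NTRC each overlap a protein-coding gene on the other strand in the reference, so part of the remaining signal cannot be assigned.

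Across the 16107 loci, 432 were higher in ntrc-2cpab (2.68% of those tested) and 222 were lower (1.38%), by limma with Benjamini-Hochberg adjusted p under 0.05. By sign alone, 50.2% of loci were above 0 and 49.8% below, and an unadjusted p under 0.05 was met by 13.1% in the higher and 11.4% in the lower direction. Most differences were small. The median size was 0.54 on the log2 scale among the higher loci and 0.51 among the lower ones, and 21 and 24 of them differed at least 2-fold on the log2(abundance + 1) scale. Of the called loci, 16 higher and 15 lower ones had a mean under 1 in the genotype where they were low and entered through the other genotype, so that they had to differ. In all 654 loci called, the 3 samples of one genotype lay apart from the 3 of the other. Such separation was itself common, at 2302 loci with ntrc-2cpab higher (14.3%) and 2266 with ntrc-2cpab lower (14.1%). Counts in the lists below are to be read against these shares and against the 2.68 and 1.38% of loci called. Without wild type replicate 1, 37 loci were higher (0.23%) and 14 lower (0.0869%), of which 35 and 14 were among the 432 and 222. The 654 loci all kept their direction, which was fixed in advance because their samples did not overlap. Leaving out ntrc-2cpab replicate 1 gave 43 higher and 19 lower, so the loss of calls was not particular to wild type replicate 1. With only the 6 samples in the fit, 39 were higher (0.242%) and 16 lower (0.0993%). With the authors' scaling undone, 826 were higher and 141 lower. The called loci lay on all 5 chromosomes, at 3.74 to 4.42% of the loci tested on each.

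**Figure D1:**
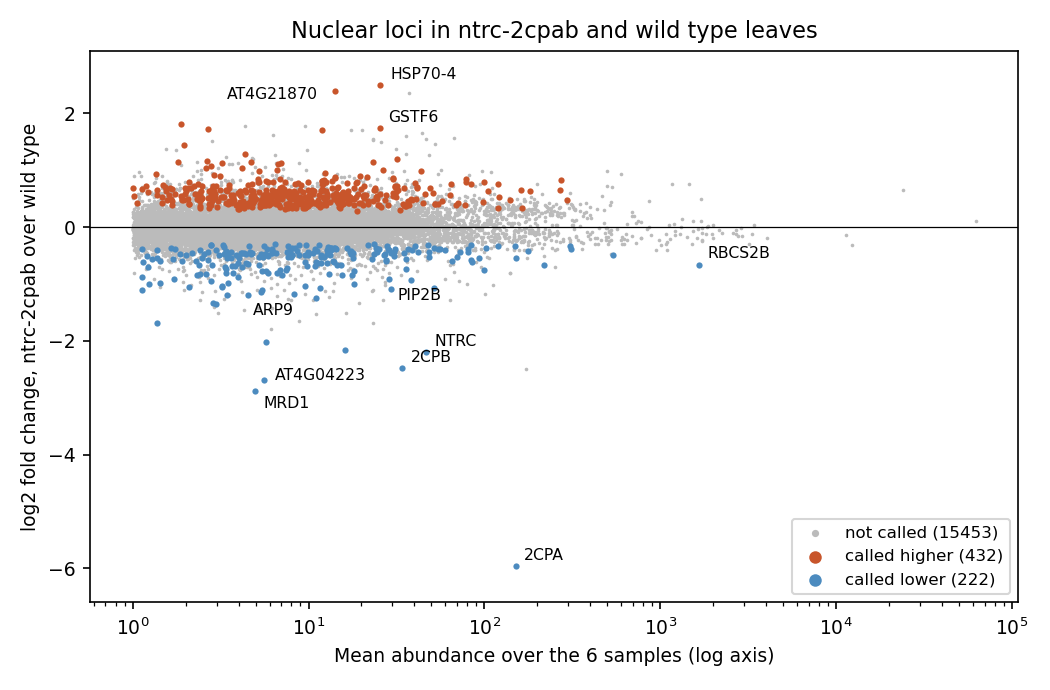
Each point is 1 of 16107 nuclear loci, placed by its mean abundance over the 6 samples (log axis) and its log2 fold change of ntrc-2cpab over wild type; colours mark loci called by limma at adjusted p under 0.05. The 432 higher and 222 lower loci lie mostly within 1 log2 unit of 0, and 2CPA, 2CPB, NTRC, MRD1 and AT4G04223 stand far below.

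Chaperones of the cytosol were higher in ntrc-2cpab. Of the 12 measured genes of the cytosolic HSP70 and HSP90 machinery, which fold newly made and damaged proteins, 8 rose, against 2.68% of all loci, and the median log2 fold change of the list was 0.65, against 0.00 over all loci. HSP70-4 (AT3G12580), a heat-inducible HSP70, stood at 8.9, 5.81 and 5.66 in the wild type and at 58.6, 48.1 and 26 in ntrc-2cpab. Every ntrc-2cpab sample was several times above every wild type sample, although ntrc-2cpab replicate 3 was lower than the other 2 (log2 fold change 2.49 ± 0.33 SE, limma adjusted p = 0.0125). HSP90.1 (AT5G52640), the heat-induced HSP90, stood at 2.1, 2.7 and 1.66 in the wild type and at 6.53, 6.73 and 6.54 in ntrc-2cpab (log2 fold change 1.28, limma adjusted p = 0.0136).

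Other members rose by smaller amounts. HSP70-3 (AT3G09440) had abundances of 184, 210 and 232 in the wild type and 368, 318 and 304 in ntrc-2cpab (log2 fold change 0.66, limma adjusted p = 0.0298). HSP90.2, HSP90.3 and HSP90.4 rose by 0.65, 0.64 and 0.54, ROF2, an immunophilin that works with HSP90, by 1.14, and J2, a DnaJ-type helper of HSP70, by 0.49. HSP70-1, at 553 to 809 in the 6 samples, did not pass (log2 fold change 0.26, limma adjusted p = 0.171). HSP70-1 to HSP70-3 and HSP90.2 to HSP90.4 are near-identical copies, and reads shared among them could have been split in ways the values do not show. Without wild type replicate 1 the list median was 0.57 and only HSP70-4 stayed called (log2 fold change 2.67, limma adjusted p = 0.0428).

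Small heat shock proteins, which hold unfolded proteins, and the disaggregase HSP101 were mostly too low to enter: 2 of 9 genes were measured. HSP17.6II (AT5G12020) stood at 0.302, 0.206 and 0.267 in the wild type and rose to 4.78, 3.32 and 2.44, and it passed the limit on abundance only through these samples, so its call says nothing about the list. HSP101 had a log2 fold change of 0.39 that did not pass. A wider set of 152 genes was chosen by words for HSP20, DnaJ and heat shock proteins. Of these, 20 were higher and 2 lower (13.2 and 1.32%, against 2.68 and 1.38% of all loci). The median was 0.06, with 60 below 0. The set includes members of the other chaperone lists. Among those that rose were AT4G21870, an HSP20-like gene, from 2.41, 2.29 and 7.11 to 21.3, 14.7 and 37.3 (log2 fold change 2.40), and AT1G72416, with a DnaJ domain, from 3.4, 4.21 and 7.64 to 21.9, 10.7 and 24.3 (log2 fold change 1.70). The 2 that fell, a share near that of all loci, were the HSP20-like AT5G02480, by 0.54, and NdhU, which has a DnaJ domain, by 0.39. None of 5 measured heat stress regulators passed, and none had an unadjusted p under 0.05. Their median was 0.14, with 4 of the 5 above 0, and MBF1C and HSFA1D had log2 fold changes of 0.43 and 0.03.

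Mitochondrial chaperones, which fold proteins after their import, were higher in ntrc-2cpab. Of 10 measured genes 9 rose, against 2.68% of all loci, and the list median was 0.68. In all 10 the ntrc-2cpab samples lay above the wild type, against 14.3% of all loci. CPN10 (AT1G14980), the lid of the mitochondrial chaperonin, stood at 48.9, 56.2 and 62.2 in the wild type and at 106, 96.9 and 98.9 in ntrc-2cpab (log2 fold change 0.85 ± 0.10 SE, limma adjusted p = 0.012). HSP60-2 (AT2G33210), a subunit of its ring, stood at 8.72, 8.71 and 9.95 against 14.7, 15.3 and 15, and HSP60 (AT3G23990) rose by 0.68. MTHSC70-1 and MTHSC70-2, the HSP70s of the matrix, rose by 0.71 and 0.68, HSP89.1, the mitochondrial HSP90, by 0.69, MGE1B, a nucleotide exchange factor, by 0.63, and HSP23.5, a small heat shock protein, by 1.45. HSP23.5 had a wild type mean of 0.568 and entered only through its level in ntrc-2cpab, and 8 members were called without it.

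HSP60 ran from 43.8 to 59.7 and HSP23.5 from 2.11 to 4.2 among the ntrc-2cpab samples, while HSP60-2 varied little. HSP89.1 (AT3G07770) stood at 13, 12.9 and 14.8 in the wild type and 24.6, 21.7 and 21.2 in ntrc-2cpab, and only MGE1A did not pass (log2 fold change 0.17). Without wild type replicate 1 the median was 0.64 and 4 of the 10 stayed called, namely CPN10, HSP60-2, MTHSC70-2 and HSP89.1. CPN10 overlaps another gene on the same strand, which limits what its level can be assigned to. Among 13 genes of mitochondrial protein import all 13 had log2 fold changes above 0, with a median of 0.33. Of these, 2 rose (15.4%, against 2.68% of all loci), the small translocase chaperones TIM13 (0.73) and TIM10 (0.51). The 6 genes of the mitochondrial stress response had none called, with 2 at an unadjusted p under 0.05 in the higher direction, and AOX1A, the alternative oxidase, stood at 6.29, 9.46 and 6.69 against 9.1, 11 and 12.2.

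**Figure D2:**
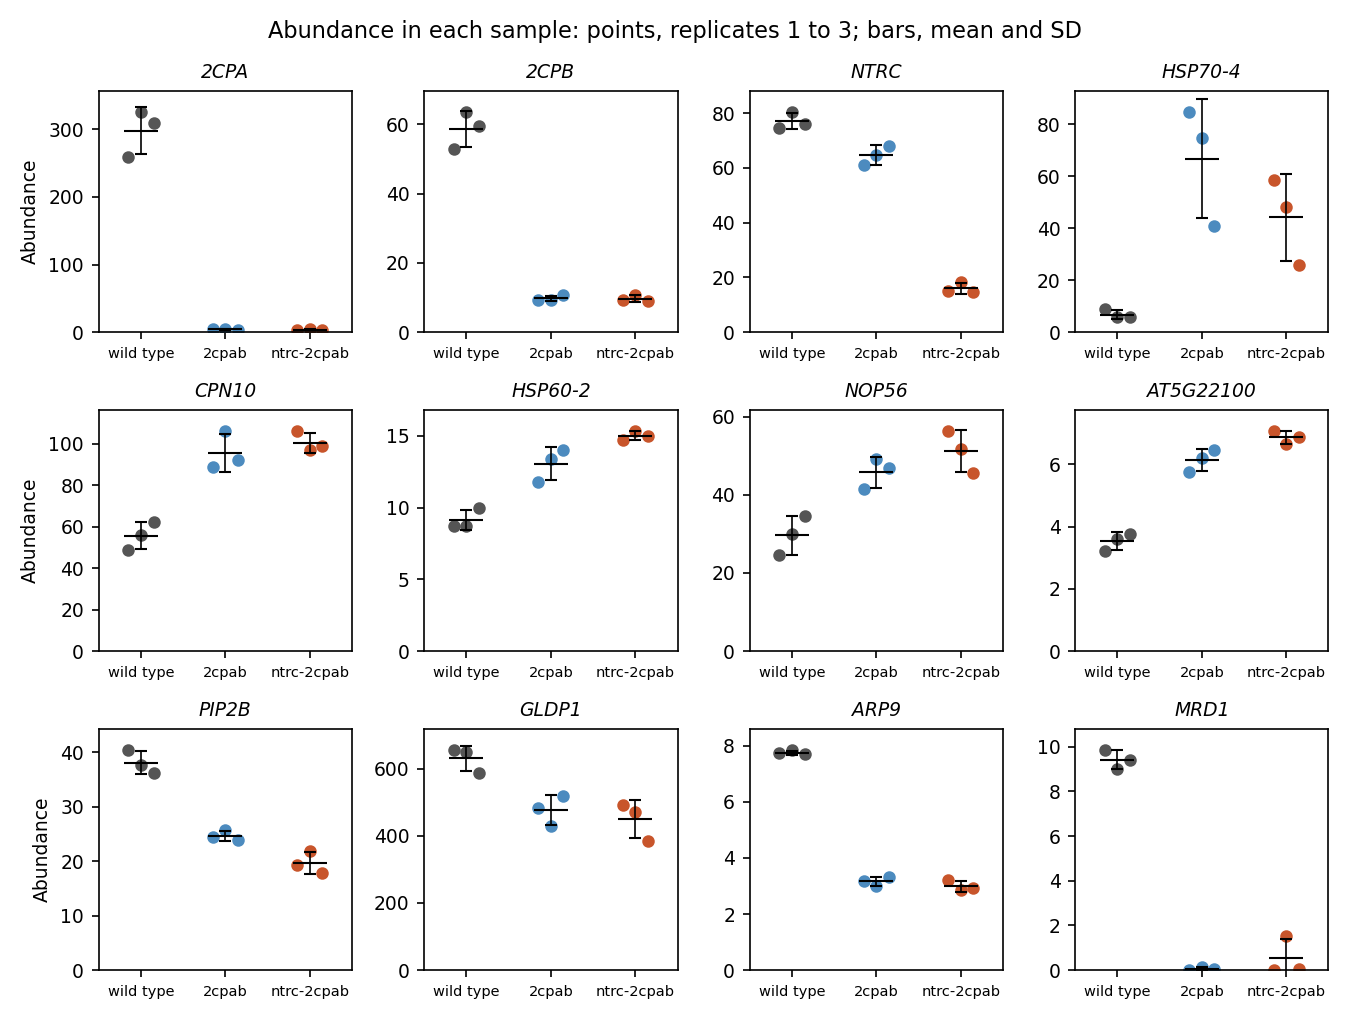
Abundance of 12 loci in each of the 9 samples (points, replicates 1 to 3 from left to right; horizontal bar and whiskers, mean and SD, n = 3; linear axes from 0). HSP70-4, CPN10, HSP60-2, NOP56 and AT5G22100 are higher in every ntrc-2cpab sample than in any wild type sample, and PIP2B, GLDP1, ARP9 and MRD1 are lower.

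In the plastid, where the mutated proteins work, 3 of 10 chaperones rose (30%, against 2.68% of all loci) and the median was 0.18. HSP90.5 (AT2G04030), the plastid HSP90, stood at 42.1, 47.6 and 53.8 in the wild type and at 87.1, 80.7 and 75.5 in ntrc-2cpab (log2 fold change 0.75, limma adjusted p = 0.0125). CPN60B2, a chaperonin subunit, rose by 0.52 and the HSP70 CPHSC70-2 by 0.34, and outside the list the chaperonin gene Cpn60alpha2 (AT5G18820) rose from 1.58, 1.81 and 1.73 to 3.29, 3.27 and 3.07 (log2 fold change 0.64). The unfoldases CLPB3 and CLPC1 had log2 fold changes of -0.24 and -0.19 and did not pass. HSP90.5 kept its call without wild type replicate 1.

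In the endoplasmic reticulum all 14 folding genes had log2 fold changes above 0, with a median of 0.67. Only 2 rose (14.3%, against 2.68% of all loci), the near-identical HSP70 genes BIP1 and BIP2, each by 0.80. BIP2 (AT5G42020) stood at 49.3, 63 and 58.8 in the wild type and 77.1, 109 and 116 in ntrc-2cpab (limma adjusted p = 0.0347). The other genes were spread more widely within genotypes. CNX1 (calnexin) stood at 44.1, 53.3 and 50.5 against 59.9, 88.8 and 101 and missed the threshold at limma adjusted p = 0.0612, and the regulator bZIP60 had a log2 fold change of 0.04. In this list ntrc-2cpab replicate 1 lay near the wild type. The deviation of its genes from their means over 9 samples had medians of -0.61, -0.10 and -0.34 among wild type leaves and of -0.08, 0.36 and 0.60 among ntrc-2cpab leaves. When wild type replicate 1 was left out, the median was 0.51 and none of the 14 was called.

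The nucleolus is where ribosomal RNA is made and modified. Of 10 measured core proteins of the small nucleolar ribonucleoproteins and nucleolin, 7 rose, against 2.68% of all loci, with a median of 0.60. All 10 separated the genotypes with ntrc-2cpab higher, against 14.3% of all loci. NUC-L1 (AT1G48920), nucleolin, stood at 57.1, 61.7 and 70.1 in the wild type and at 115, 102 and 103 in ntrc-2cpab (log2 fold change 0.75 ± 0.11 SE, limma adjusted p = 0.0166). Of the box C/D particle, which guides methylation of ribosomal RNA, FIB2 (fibrillarin, the methyltransferase), NOP56, NOP5-1 and NOP5-2 rose by 0.88, 0.77, 0.89 and 0.58, while FIB1 had a log2 fold change of 0.44 that did not pass. Of the H/ACA particle, which guides pseudouridylation, CBF5 (the pseudouridine synthase) and GAR1 rose by 0.52 and 0.53, and NHP2 and NOP10 did not pass, at 0.37 and 0.62.

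The wild type replicates were not alike in these genes. NOP56 (AT1G56110) stood at 24.6, 29.9 and 34.6 in the wild type and 56.2, 51.7 and 45.6 in ntrc-2cpab. By the same measure the list lay at -0.56, -0.44 and -0.21 for wild type leaves, at 0.02, 0.26 and 0.14 for those of 2cpab, and at 0.41, 0.23 and 0.13 for the triple mutant, so that wild type replicate 3 and ntrc-2cpab replicate 3 lay nearest to each other. With wild type replicate 1 left out, the median was 0.52 and none of the 10 was called, with NOP56 at limma adjusted p = 0.0657. NOP56, NUC-L1 and FIB2 overlap other genes, in the case of FIB2 a small nucleolar RNA on the same strand.

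Of 28 factors that assemble ribosomes, 11 rose (39.3%, against 2.68% of all loci) and 17 did not pass. All 28 had log2 fold changes above 0, with a median of 0.41. The genotypes were separated with ntrc-2cpab higher in 24, against 14.3% of all loci. BOP1, WDR12 and PES, which form 1 complex in maturation of the large subunit, rose by 0.57, 0.65 and 0.50. WDR12 (AT5G15550) stood at 6.32, 7.47 and 8.79 in the wild type and 13.9, 11.9 and 11.2 in ntrc-2cpab. BRX1-2, SWA2 and APUM24, which act in ribosomal RNA processing, rose by 0.64, 0.59 and 0.58, and the GTPase NSN1 by 0.50. In the fit lacking wild type replicate 1 the median was 0.37 and none was called. A wider set chosen by words for nucleolar and pre-rRNA processing proteins had 15 of 100 genes higher and none lower, with a median of 0.25 and 25 below 0; 4 of the 15 were small nucleolar RNAs themselves, among them AT4G39364, at 48.7, 49.3 and 45.9 against 60.4, 72.1 and 66.1.

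Genes with ribosomal protein annotations were shifted upward by small amounts. A set of 313 was chosen by words for ribosomal proteins of any compartment. The words also match family names, so not every member need be a ribosomal protein. Of the 313, 268 had log2 fold changes above 0, with a median of 0.30. The genotypes were separated with ntrc-2cpab higher in 190, against 14.3% of all loci. In the set 24 rose (7.67%, against 2.68% of all loci) and 1 fell. AT3G25520 (ATL5), for ribosomal protein L5, stood at 213, 259 and 269 in the wild type and at 330, 349 and 349 in ntrc-2cpab (log2 fold change 0.48, limma adjusted p = 0.0414). AT5G20160, AT3G58660 and AT2G33370, annotated as members of ribosomal protein families, rose by 0.85, 0.83 and 0.76. The 1 gene that fell, EMB3126 (AT3G63490), stood at 164, 172 and 164 against 128, 135 and 134. After removal of wild type replicate 1 the median was 0.23 and none of the 313 was called. The median deviation of the list was -0.32, -0.17 and -0.04 in the wild type and 0.21, 0.07 and 0.03 in ntrc-2cpab, so wild type replicate 1 was the lowest sample.

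The dividing cell markers, 5 genes of the cell cycle, were not called and had none at an unadjusted p under 0.05 in either direction. Their median was 0.07 and was -0.01 without wild type replicate 1. Their part in the values of the nucleolar genes was not tested. Translation initiation factors had 3 of 48 higher (6.25%, against 2.68% of all loci), with a median of 0.15. Proteasome genes had 1 of 44 higher (2.27%), an assembly chaperone, with a median of 0.17 and 43 of 44 above 0. Pentatricopeptide repeat proteins, which process organelle RNA, had 5 of 145 higher (3.45%) and a median of 0.02. These last 2 shares were near that of all loci. Within the repeat proteins, PPR596 (AT1G80270) rose from 4.33, 3.82 and 4.72 to 8.76, 8.14 and 7.72.

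**Figure D3:**
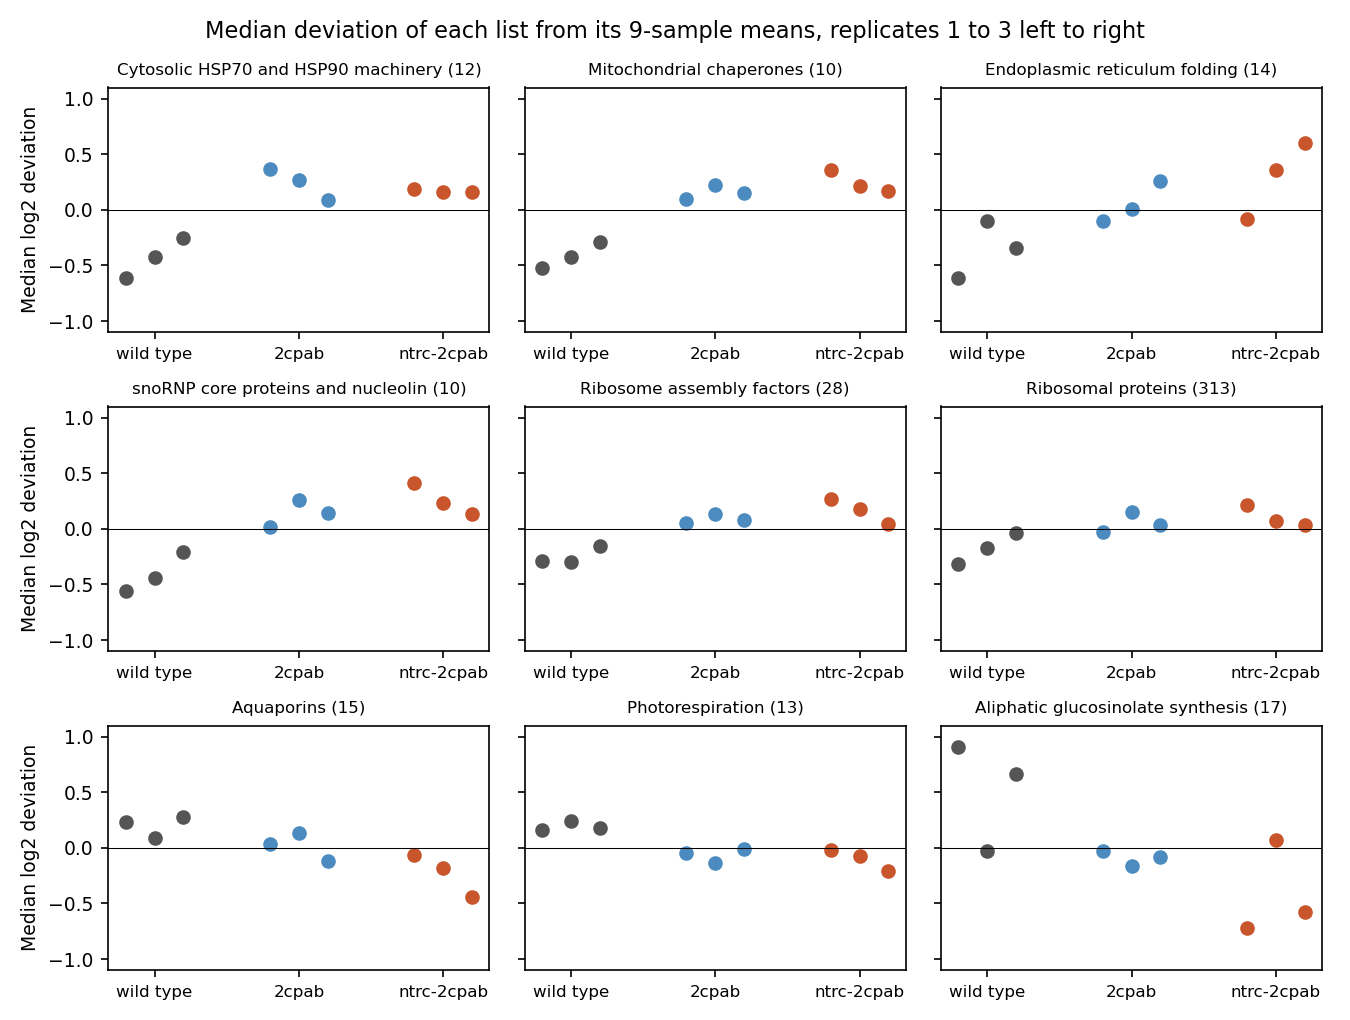
Median log2 deviation of 9 gene lists from the means over 9 samples, by genotype, with replicates 1 to 3 from left to right and the number of measured genes in brackets. The 3 ntrc-2cpab points lie above all wild type points for the HSP70 and HSP90 machinery, mitochondrial chaperones, snoRNP proteins, assembly factors and ribosomal proteins, while those for endoplasmic reticulum folding lie closer and those for glucosinolate genes overlap.

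The stretches upstream of these genes were read because members of several groups were higher together. Short motifs were searched on both strands in the 250 bases before the annotated gene start. Site II (TGGGCC or TGGGCT, matches that overlap counted apart) and the telo box (AAACCCTA) are known from plant genes for ribosome production. The heat shock element, the G-box (CACGTG) and the evening element (AAAATATCT) were searched too. Site II letters were present at 24.3% of 16052 loci tested, 38.2% of the 432 higher loci and 14% of 221 lower loci. The share was 80% for the 10 snoRNP and nucleolin genes, 57.1% for the 28 assembly factors and 57.5% for the 313 genes of the ribosomal protein set. It was 60% for the 10 mitochondrial chaperones, against 25% for the 12 cytosolic HSP70 and HSP90 genes. Telo box letters were present at 3.89% of all loci, 8.33% of the higher and 3.17% of the lower ones. The heat shock element GAANNTTC was at 9.72% of the higher loci and 9.18% of all. Its share was 30% for the snoRNP and nucleolin genes and 16.7% for the cytosolic HSP70 and HSP90 genes. G-box letters were at 5.09% of the higher loci, 9.95% of the lower ones and 7.36% of all, and at 42.9% of 14 endoplasmic reticulum folding genes. The evening element was at 1.85, 1.36 and 2.49% of the higher, lower and all loci. These are counts of letters in a window, and no binding was measured. Stretches of 4 genes that rose and hold at least 3 matches of site II or the telo box are shown, from the RefSeq genome TAIR10.1. They run 5′ to 3′ in the direction of the gene, with the letters of these 2 motifs in capitals. NOP56 lies on the minus strand with its stretch at chr1:20986953-20987202, and NOP5-1 (chr5:9540611-9540860), MTHSC70-2 (chr5:2975186-2975435) and BRX1-2 (chr1:19710929-19711178) lie on the plus strand.
NOP56: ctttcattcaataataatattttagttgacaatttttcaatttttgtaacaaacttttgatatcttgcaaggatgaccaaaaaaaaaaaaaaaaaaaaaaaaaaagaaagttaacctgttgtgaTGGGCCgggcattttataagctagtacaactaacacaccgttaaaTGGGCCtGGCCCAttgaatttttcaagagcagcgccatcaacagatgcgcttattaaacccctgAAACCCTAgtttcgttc
NOP5-1: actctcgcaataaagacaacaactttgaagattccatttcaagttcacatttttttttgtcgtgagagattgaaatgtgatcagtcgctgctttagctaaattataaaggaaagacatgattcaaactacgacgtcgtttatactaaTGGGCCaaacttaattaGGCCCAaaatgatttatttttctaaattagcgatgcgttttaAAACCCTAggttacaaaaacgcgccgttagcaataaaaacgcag
MTHSC70-2: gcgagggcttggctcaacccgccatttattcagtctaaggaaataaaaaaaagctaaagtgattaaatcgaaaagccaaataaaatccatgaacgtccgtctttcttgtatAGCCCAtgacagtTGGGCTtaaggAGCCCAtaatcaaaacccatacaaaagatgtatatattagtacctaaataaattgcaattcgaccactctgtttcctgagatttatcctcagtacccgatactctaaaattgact
BRX1-2: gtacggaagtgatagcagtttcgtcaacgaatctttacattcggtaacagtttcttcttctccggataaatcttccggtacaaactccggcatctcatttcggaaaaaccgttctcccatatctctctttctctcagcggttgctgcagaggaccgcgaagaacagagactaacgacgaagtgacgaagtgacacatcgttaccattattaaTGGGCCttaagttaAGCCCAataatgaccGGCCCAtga
NOP56 holds 3 site II matches and 1 telo box, NOP5-1 holds 2 and 1, and MTHSC70-2 and BRX1-2 hold 3 site II matches each and 0 telo boxes.

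Genes of the redox network around the missing proteins changed little. Of 19 genes of the plastid thioredoxin system 1 fell, and the median was -0.04. TRXF2 (AT5G16400), an f-type thioredoxin that activates carbon fixation enzymes, stood at 32.6, 37.7 and 35.5 in the wild type and at 23.8, 28.4 and 27.8 in ntrc-2cpab (log2 fold change -0.39, limma adjusted p = 0.0436), and its close copy TRXF1 had a log2 fold change of -0.26 that did not pass. None of 7 other peroxiredoxin, sulfiredoxin and thioredoxin reductase genes passed, with 1 at an unadjusted p under 0.05 in the higher direction and 2 in the lower. PRXQ (AT3G26060), a plastid peroxiredoxin, stood at 159, 200 and 183 against 128, 138 and 139, which separated the genotypes but missed the threshold (log2 fold change -0.41, limma adjusted p = 0.0599). Without wild type replicate 1 TRXF2 had a log2 fold change of -0.45 and was no longer called.

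Among 18 antioxidant enzymes 1 fell (5.56%, against 1.38% of all loci), and the median of the list was 0.00. This was GR2 (AT3G54660), the organellar glutathione reductase, from 48.3, 42.8 and 42.5 to 34.4, 34.5 and 30.7 (log2 fold change -0.41, limma adjusted p = 0.0329). The superoxide dismutase FSD1 stood at 46.8, 94 and 63.2 against 87.8, 107 and 134, with overlap. Of 10 glutathione transferases, which couple glutathione to reactive molecules, 1 rose (10%, against 2.68% of all loci). GSTF6 (AT1G02930) went from 7.18, 18.9 and 8.46 to 28.3, 33.9 and 55.7 (log2 fold change 1.74, limma adjusted p = 0.0298). It has a near-identical neighbour, and its wild type replicate 2 was the highest of that genotype. GR2 and GSTF6 both lost the call without wild type replicate 1 (limma adjusted p = 0.102 each). The 7 regulators known to respond to reactive oxygen had none called by limma, with 0 higher and 2 lower at an unadjusted p under 0.05 and a median of -0.23 that turned to 0.30 without wild type replicate 2. ZAT10, one of them, stood at 4.63, 18.4 and 5.14 in the wild type and 5.95, 5.39 and 7.72 in ntrc-2cpab.

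Photosynthesis genes showed few calls. None of 18 antenna genes and none of 31 for electron transport and the photosystem cores passed, at medians of -0.13 and -0.11. In the Calvin-Benson cycle, which fixes carbon dioxide, 2 of 20 fell (10%, against 1.38% of all loci). Of the 20, 19 were below 0, against 49.8% of all loci, with a median of -0.21. RBCS2B (AT5G38420), a Rubisco small subunit gene with close copies, stood at 1664, 2274 and 2199 in the wild type and at 1278, 1319 and 1256 in ntrc-2cpab (log2 fold change -0.66, limma adjusted p = 0.0484). CP12-2 (AT3G62410), a small protein that binds enzymes of the cycle in the dark, stood at 195, 217 and 199 against 152, 151 and 152 (log2 fold change -0.42, limma adjusted p = 0.0309). Neither RBCS2B nor CP12-2 stayed called without wild type replicate 1, where the list median was -0.29.

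Photorespiration, which recovers carbon after Rubisco has reacted with oxygen, was below 0 in all 13 genes measured, with a median of -0.27. In 11 of the 13 the genotypes did not overlap, against 14.1% of all loci with ntrc-2cpab lower. The 2 that fell (15.4%, against 1.38% of all loci) are both of the glycine decarboxylase complex of mitochondria. GLDP1 (AT4G33010) stood at 654, 650 and 588 in the wild type and at 493, 470 and 385 in ntrc-2cpab (log2 fold change -0.49, limma adjusted p = 0.047), and GLDT (AT1G11860) at 328, 353 and 349 against 266, 282 and 263 (log2 fold change -0.34, limma adjusted p = 0.0444). The glycolate oxidase GOX1 had a log2 fold change of -0.39 and missed the threshold (limma adjusted p = 0.0752). BOU (AT5G46800), a mitochondrial carrier needed for photorespiration, fell by 0.36. None of these calls stood without wild type replicate 1, where the median of the 13 genes was -0.31.

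Of 26 genes of chlorophyll synthesis 1 fell, CAO (AT1G44446), which makes chlorophyll b, from 93.7 ± 3.27 to 75 ± 3.78 (mean ± SD, n = 3) (log2 fold change -0.32, limma adjusted p = 0.0489), with a list median of -0.11. Of 24 genes of starch metabolism 1 fell, the maltose exporter MEX1 (AT5G17520), by 0.33, with a median of -0.04 that was 0.02 with the authors' scaling undone. CAO and MEX1 both lost the call without wild type replicate 1. None of 10 sugar starvation genes was called by limma, and 0 were higher and 2 lower at an unadjusted p under 0.05. ASN1, an asparagine synthetase switched on by low sugar, stood at 10.4, 15.3 and 9.56 against 6.85, 4.78 and 8.89.

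Of 15 water channels (aquaporins) measured, 4 fell (26.7%, against 1.38% of all loci) and 11 did not pass. All 15 were below 0, with a median of -0.37. The genotypes were separated with ntrc-2cpab lower in 10, against 14.1% of all loci. PIP2B (AT2G37170), a water channel of the plasma membrane, stood at 40.3, 37.7 and 36.1 in the wild type and at 19.3, 21.8 and 17.9 in ntrc-2cpab (log2 fold change -0.92 ± 0.09 SE, limma adjusted p = 0.00348). PIP1B and PIP1A fell by 0.66 and 0.58, and PIP2;3, which has a sequence close to that of PIP2B, by 0.66. PIP2A stood at 345, 270 and 321 against 222, 204 and 149 and missed the threshold (limma adjusted p = 0.06). Without wild type replicate 1 the median was -0.33 and PIP2B alone stayed called (log2 fold change -0.88, limma adjusted p = 0.02). The median stayed below 0 in all alternatives, from -0.47 to -0.28.

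Of 16 genes of the cold and abscisic acid list 3 rose and 1 fell, with a median of -0.19. The 3 that rose encode receptors of the hormone: PYL6 (AT2G40330), from 0.325, 0.429 and 1.42 to 6.21, 3.03 and 4.74 (log2 fold change 1.73), PYL5, by 1.12, and PYL4 (AT2G38310), from 23, 27.2 and 37.5 to 73, 46.4 and 56.4 (log2 fold change 0.98, limma adjusted p = 0.0303). ABI2 (AT5G57050), a phosphatase that the receptors inhibit, stood at 3.75, 2.8 and 2.79 against 2.02, 2.16 and 1.67 (log2 fold change -0.47). PYL6, with a wild type mean of 0.724, entered the comparison only through its level in ntrc-2cpab. None of the 4 stayed called without wild type replicate 1, at log2 fold changes of 1.57, 1.05, 0.83 and -0.37.

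Of 10 expansins and wall enzymes, which loosen cell walls in growth, 1 rose and 1 fell (10% each, against 2.68 and 1.38% of all loci). The xylosidase XYL4 rose by 1.15, and the beta-expansin EXPB3 (AT4G28250) fell from 19.8, 12.6 and 15.5 to 5.59, 7.95 and 5.02 (log2 fold change -1.24, limma adjusted p = 0.0203). In flavonoid and anthocyanin synthesis 2 of 16 fell (12.5%, against 1.38% of all loci), with a median of -0.46. These were UGT75C1 (AT4G14090), an anthocyanin glucosyltransferase, by 0.85, and chalcone isomerase, CHI, by 0.51. Both had lost the call without wild type replicate 1. In sulfate assimilation 2 of 13 fell (15.4%, against 1.38% of all loci). These were APR1 (AT4G04610), the adenylylsulfate reductase, from 27.7, 19 and 22.7 to 12.1, 13.5 and 11.4, and GGCT2;1, which recycles glutathione, by 0.70. XYL4, EXPB3, APR1 and GGCT2;1 were not called without wild type replicate 1 either.

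In 2 lists the medians were lower than in any other, and none of their members passed. The 17 genes of aliphatic glucosinolate synthesis, which make defence compounds from methionine, had a median of -0.91 and all were below 0. Only 3 separated the genotypes, against 14.1% of all loci with ntrc-2cpab lower. CYP83A1, of the core pathway, stood at 108, 57 and 93.6 in the wild type and 43.8, 60.6 and 40.8 in ntrc-2cpab, so that replicate 2 of each genotype had nearly the same level (log2 fold change -0.79, limma adjusted p = 0.0808). The 15 iron deficiency and ferritin genes had a median of -0.87. IMA3, a peptide gene of the iron response, stood at 197, 41.5 and 211 against 58.1, 48.1 and 52.3, and wild type replicate 2 lay below every ntrc-2cpab sample. The immune genes of the salicylic acid list, 16 in all, had a median of 0.27 that was 0.08 without wild type replicate 1, and PR5 stood at 33 ± 31.2 against 71.4 ± 20.2 (mean ± SD, n = 3), with overlap. The 14 jasmonate genes had a median of 0.25, which ran from -0.18 to 0.52 when 1 sample was left out.

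**Figure D4:**
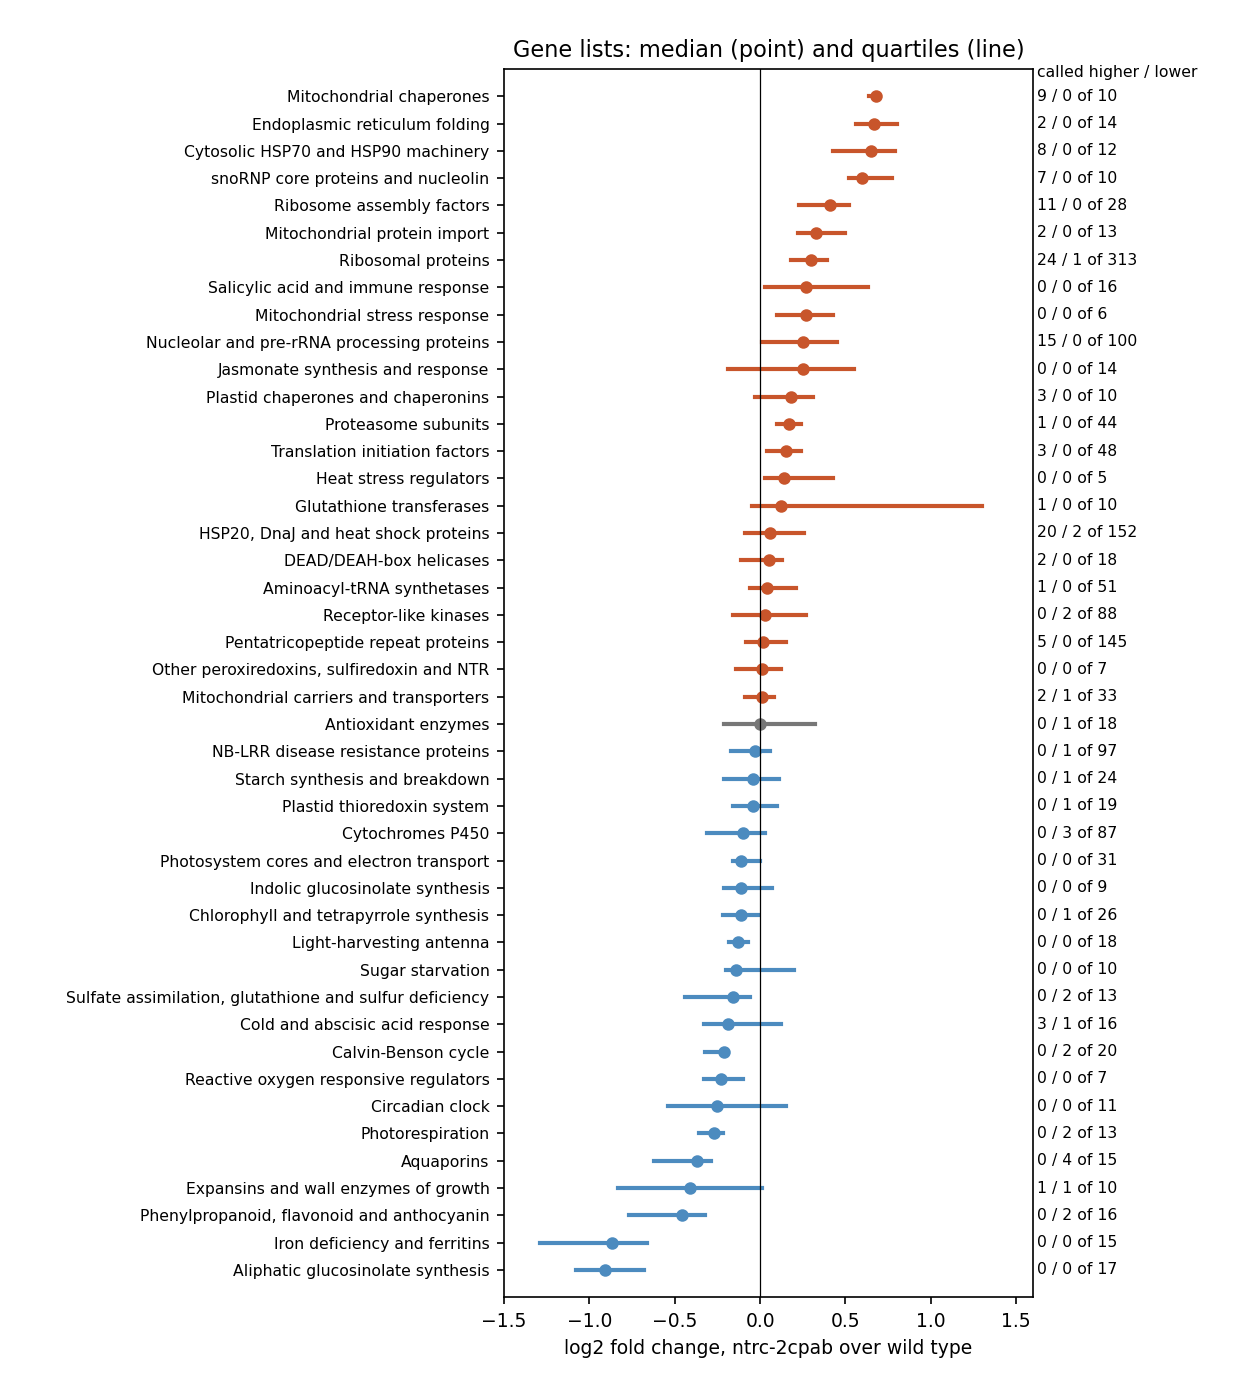
Median (point) and quartiles (line) of the log2 fold change of ntrc-2cpab over wild type for each gene list with at least 5 measured genes, with the number called higher and lower beside it. Mitochondrial chaperones have 9 of 10 called higher at a median of 0.68 and a narrow range, while the lists of lowest median, aliphatic glucosinolate synthesis (-0.91) and iron deficiency (-0.87), have none called.

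Outside the lists, MRD1 (AT1G53480) fell from 9.83, 8.99 and 9.41 to 0.0283, 1.52 and 0.0721 (limma log2 fold change -2.89, adjusted p = 0.00432), and AT4G04223, a non-coding RNA, from 12.3, 9.38 and 9.36 to 0.318, 1.41 and 0.667 (log2 fold change -2.69, limma adjusted p = 0.00419). The actin-related gene ARP9 (AT5G43500) stood at 7.73, 7.83 and 7.7 in the wild type and 3.2, 2.84 and 2.93 in ntrc-2cpab (log2 fold change -1.14, limma adjusted p = 0.000113). In these 3 loci every ntrc-2cpab sample lay below every wild type sample, and MRD1 overlaps a protein-coding gene on the other strand. MRD1 and AT4G04223 had ntrc-2cpab means of 0.54 and 0.797. Both entered the comparison only through their level in the wild type, so they had to differ. HDA3 (AT3G44750), a histone deacetylase of the nucleolus, rose to 40, 36.5 and 31.1, above a highest wild type value of 20.9 (log2 fold change 1.01), and AMT2, an ammonium transporter, by 1.13. AT1G31835, of unknown function, rose from 187, 189 and 202 to 289, 296 and 465, and overlaps a small nucleolar RNA on the same strand.

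Of the 654 loci called, 35 kept their call in the full fit and in all 9 fits that left out 1 sample, 25 higher (0.155% of loci tested) and 10 lower (0.0621%). Those named here beyond the earlier groups were singled out after their values were seen. Of the 25, CPN10, HSP60-2, MTHSC70-2, HSP89.1, HSP90.5, Cpn60alpha2 and HSP70-4 are chaperones of mitochondria, plastids or cytosol. PWP2 (AT1G15440), whose yeast counterpart belongs to the small subunit processome, rose from 5.34, 5.94 and 6.65 to 11.7, 10.9 and 9.95, and OLI2 (AT5G55920), annotated as a methyltransferase, from 10, 11 and 11.6 to 20, 18.1 and 16.4. AT5G22100, an RNA cyclase-like gene that overlaps a gene on the other strand, stood at 3.21, 3.62 and 3.76 against 7.06, 6.66 and 6.88, and shared the lowest adjusted p of the higher loci with EMB2729 (limma adjusted p = 0.00348 each). EMB2729 (AT3G20440), of the alpha-amylase family, stood at 1.64, 1.65 and 1.8 against 4.11, 4.1 and 4.09.

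Among the others of the 25, CPZ (AT2G04530), a tRNA-processing enzyme of the chloroplast, rose by 0.62, and GR-RBP2 (AT4G13850), a glycine-rich RNA-binding protein of mitochondria, from 12.7, 12.6 and 15.5 to 24, 22.8 and 24.6. AT2G37690, annotated as an enzyme of purine synthesis, rose by 0.99. Beside the 3 mutated genes, MRD1, AT4G04223, ARP9 and PIP2B, the 10 lower loci included MIPS2 (AT2G22240), an inositol phosphate synthase, at 55.7, 52.9 and 42.7 against 25, 28.9 and 24.1 (log2 fold change -0.93, limma adjusted p = 0.012), the transcription factor DOF1 (AT1G51700), at 14.2, 13.9 and 13.7 against 9.51, 9.91 and 9.21, and the long non-coding RNA AT3G29644, at 2.36, 2.56 and 2.65 against 1.19, 0.714 and 0.758. AT3G29644 had an ntrc-2cpab mean of 0.887 and entered only through its level in the wild type.

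**Figure D5:**
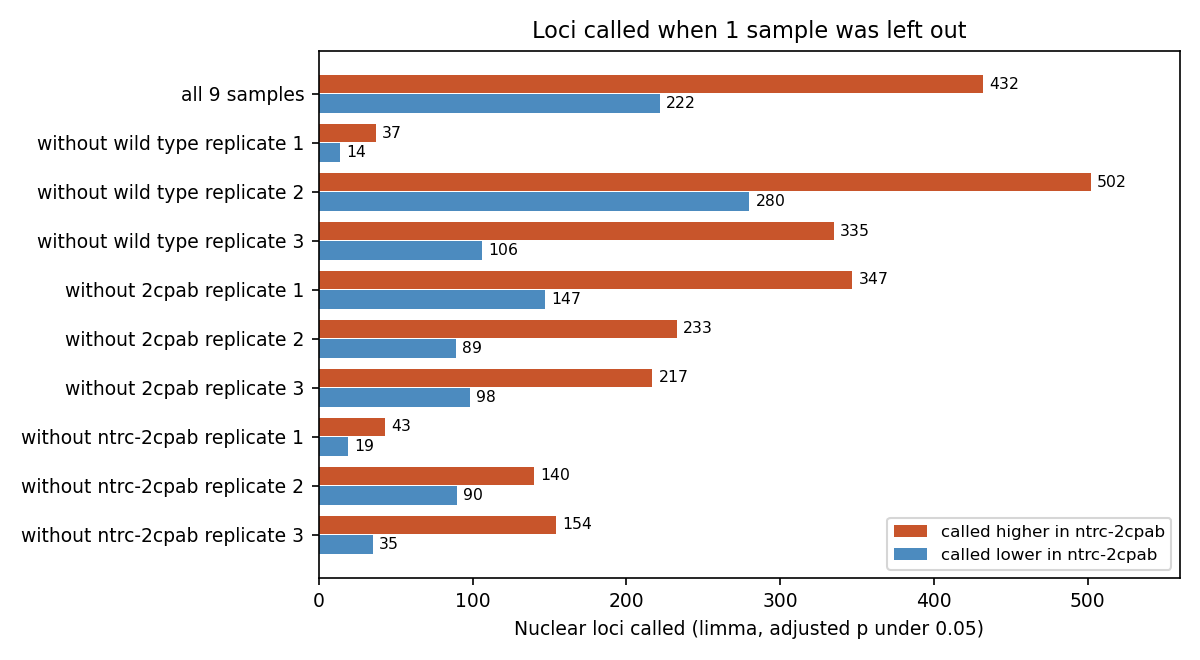
Number of nuclear loci called higher and lower in ntrc-2cpab (limma, adjusted p under 0.05) with all 9 samples and with each sample left out. Leaving out wild type replicate 1 gives 37 and 14, ntrc-2cpab replicate 1 gives 43 and 19, and wild type replicate 2 gives 502 and 280, against 432 and 222 with all samples.

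The double mutant 2cpab was compared with the same wild type samples, so the values below share them. In 2cpab 11 loci were higher (0.0683%) and 12 lower (0.0745%), with 1436 and 1351 at an unadjusted p under 0.05 (8.92 and 8.39%). HSP70-4 had a log2 fold change of 3.08 in 2cpab and 2.49 in ntrc-2cpab, CPN10 of 0.77 and 0.85, NUC-L1 of 0.53 and 0.75, PIP2B of -0.60 and -0.92, and GLDP1 of -0.40 and -0.49. Of these, NUC-L1 and GLDP1 did not pass in 2cpab (limma adjusted p = 0.0823 and 0.137). The triple mutant was also compared with the double in the same fit, where the spread within the wild type enters the error. NTRC itself was the 1 locus called lower (log2 fold change -1.95 ± 0.09 SE, limma adjusted p = 5.17e-05, 0.00621% of loci tested) and 0 were called higher, with 341 and 349 at an unadjusted p under 0.05 (2.12 and 2.17%). Of the loci described above, AT4G04223 had a difference of -1.74 ± 0.26 SE (limma adjusted p = 0.258), AT3G29644 of -0.93 ± 0.12 (limma adjusted p = 0.114) and HSP70-4 of -0.60 ± 0.33 (limma adjusted p = 0.995), and none passed. No change other than that of NTRC was thus shown to differ between ntrc-2cpab and 2cpab, which leaves differences within these errors undetected.

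Linked differences between the stocks were looked for around the mutated genes. Of the 100 tested loci nearest to each, 50 on either side, 2 were called beside 2CPA, 1 beside 2CPB and 2 beside NTRC, or 2, 1 and 2%, against 4.06% of all loci. Beside 2CPB it was HAT14, which fell by 0.73, and near NTRC these were CAM2, a calmodulin gene, which rose by 0.71, and AT2G41990, which rose by 1.04. Markers of other leaf cell types had no member called: the medians were -0.18 for 6 guard cell genes, -0.16 for 5 phloem genes, -0.23 for 5 xylem genes and -0.13 for 2 trichome genes. All 4 leaf mesophyll markers were below 0, with a median of -0.22 that was 0.00 with quantile normalization, and the part of cell composition in the results was not tested.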

How the data were processed

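The authors deposited 1 table of log2 values per locus for 9 poly(A) RNA-seq libraries, taken here as log2(abundance + 1). The submitters' processing notes name FastQC, HISAT2, StringTie and the build TAIR10, without versions. The sources used here do not give the kind of abundance (FPKM or TPM). In every sample the 75th percentile was 2.7483, so the values had been scaled to a common upper quartile, and depth is unknown. Precision therefore rests on the spread between replicates, which covers plant pools of 1 experiment.

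From these values, nuclear loci whose abundance averaged 1 or more in the 6 samples were tested with limma 3.58.1 in R 4.3.3, with an intensity trend and all 9 samples in 1 fit, which leaves 6 residual degrees of freedom. P-values were adjusted by Benjamini-Hochberg over 16107 loci, and a locus was called at an adjusted p under 0.05. Folds on this scale understate changes of low loci. How many loci of the real data were called wrongly or missed is unknown.

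Gene names and promoters came from RefSeq TAIR10.1, which matched 16053 of the tested loci; the coordinates printed are of that build. Figures and tables used Python 3.11.15, numpy 2.4.6, pandas 2.3.3 and matplotlib 3.10.9. Members and lists were chosen with earlier results of these data known. The naming rule took the mutated genes, up to 12 loci of largest change in each direction (at least 2-fold, abundance at least 5), the 6 of highest abundance, the 6 of lowest adjusted p, and in each list up to 4 called members or, with none called, the 2 of highest abundance. Other list members named in the text were chosen after their values were seen.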

Additional observations from a re-analysis of the deposited data

Results flagged for a closer look

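Loci outside the comparison that were higher in ntrc-2cpab than in the wild type were looked up in data that it left out, namely organelle loci and nuclear loci under the abundance limit, with limma at an adjusted p under 0.05 over a fit that included them. In the organelles, ATCG00260 had a log2 fold change of 0.63, from 47, 40.8 and 36.6 in the wild type to 65.1, 62 and 66.5, and ATMG00820 one of 0.35. The library preparation selected poly(A) RNA, which most organelle transcripts lack.

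Of 259 organelle loci, 2 were called in each direction (0.772%). Of 11564 nuclear loci under the abundance limit, 10 were higher (0.0865%) and 39 lower (0.337%). These are the 10 that were higher. AT5G07322 had a log2 fold change of 0.91, AT3G44006 of 0.85, AT3G29250 of 0.61, AT2G21350 of 0.54 and AT5G64710 of 0.49. AT1G17460 had a log2 fold change of 0.44, AT3G01600 of 0.39, AT5G40230 of 0.36, AT4G37620 of 0.24 and AT2G29620 of 0.14. AT3G01600, AT3G44006 and AT4G37620 were listed at 0 in all 3 wild type samples. At these levels the depth behind a value is unknown.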

How the results depend on the processing

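The counts of 432 higher and 222 lower loci depended on the setting. All of these loci that an alternative tested kept their direction in it. Because their samples did not overlap, this was fixed in advance except where samples were rescaled against each other. With no limit on abundance 179 and 112 were called, with only the 6 samples in the fit 39 and 16, with the authors' scaling undone 826 and 141, and with the replicate block 258 and 112. When 1 sample was left out, the counts ran from 37 to 502 higher and from 14 to 280 lower, with 37 and 14 without wild type replicate 1 and 43 and 19 without ntrc-2cpab replicate 1. Without ntrc-2cpab replicate 2 they were 140 and 90, without ntrc-2cpab replicate 3 154 and 35, without 2cpab replicate 2 233 and 89, and without 2cpab replicate 3 217 and 98. Without wild type replicate 3, 106 loci were lower, and without 2cpab replicate 1, 147. The labels do not state that the replicate numbers pair the samples. Same-numbered wild type and ntrc-2cpab samples had correlations of 0.016, -0.126 and -0.115 in their deviations. Those of wild type and 2cpab were 0.208, -0.121 and 0.022, and those of 2cpab and ntrc-2cpab 0.103, -0.166 and 0.147. Not every pair was over 0.1 in any of the 3 comparisons. Whether same-numbered samples shared a batch was not tested. The other alternatives (a limit of 5, a filter over 9 samples with organelle loci, quantile normalization, equal nuclear sums, pseudocounts of 0.1 and 5, no intensity trend, array weights) stayed within 1.5 times of both counts. Of 103 named loci called, 18 kept the call without wild type replicate 1, 25 with only the 6 samples and 64 with the replicate block. The cause of these differences was not tested. Depth, which is unknown, limits the loci of low abundance.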

Other observations

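The following loci were chosen after their values were seen. The plastid genes psaA (ATCG00350) and psaB (ATCG00340), which encode the core of photosystem I, were lower in ntrc-2cpab. ATCG00350 stood at 13038, 10953 and 11205 in the wild type and at 8557, 8932 and 8237 in ntrc-2cpab (log2 fold change -0.45, limma adjusted p = 0.0413), and ATCG00340 at 13458, 11905 and 11652 against 8797, 9171 and 8976 (log2 fold change -0.46, limma adjusted p = 0.0406). The genotypes did not overlap in either gene. These were the 2 loci called lower among 259 organelle loci (0.772%), in libraries selected for poly(A) RNA.

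AT4G23420 was near 0 in some samples and high in others within every genotype. It stood at 262, 0.248 and 345 in the wild type, at 0.288, 573 and 0.0828 in 2cpab, and at 428, 0.222 and 0.216 in ntrc-2cpab (log2 fold change -2.49, limma adjusted p = 0.672). It was the 1 locus tested with a sample under 1 and a sample over 50 in each of the 3 genotypes.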
